A study of Mus musculus with 11 samples.

Results

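The serpin genes and angiotensinogen were examined in 3T3-L1 cells, mouse preadipocytes of an established line that turn into fat cells in culture and were used here as adipocytes. Members were the genes in the annotation table used here whose single symbol begins with Serpin, plus Agt and without Serping1, each measured by its brightest Affymetrix probe set. This gave 40 of 18193 genes: 15 of clade A with Agt, 18 of clade B, and 7 of clades C, D, F, H and I. These do not cover clade E, which was not analysed here. The 11 arrays comprised 2 of chronic insulin (CI, 10 nM insulin in 4 additions over a day and the following morning), 3 of TNF (2 ng/ml for 4 days), 3 of dexamethasone (DEX, 20 nM for 8 days in an ethanol carrier of 0.01%) and 3 of untreated control cells. All cells were of 1 line, for which the labels name no genetic change, and were harvested at the same age after differentiation. Whether the control cells received the ethanol carrier is not clear from the labels, and separate cultures are not stated for the replicates, so each p-value reflects no more than the spread among these arrays, which may be technical. Values are linear intensities, and intensities of different probe sets cannot be ranked against each other.

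Serpins are a family of proteins that mostly inhibit serine proteases. The protease cuts an exposed loop of the serpin and is trapped by a large change of the serpin's shape. Clade A holds secreted proteins of blood plasma, clade B holds mostly intracellular inhibitors, and some members have lost inhibition, such as angiotensinogen, the precursor that renin cuts to release angiotensin I. White fat is a source of angiotensinogen outside the liver.

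Promoters are shown for members that passed with an absolute log2 fold change over 0.5 against control and whose start region held a searched motif, because these regions differ in the matches beside the responses described below. The windows (RefSeq, GRCm38.p6) run from 250 bases before the gene start to 50 after it, and matching by symbol and gene identifier found a window for 35 of the 40 members. Searched on both strands were the full glucocorticoid receptor site, its half-site TGTTCT, the STAT site TTCNNNGAA, the heat shock element GAANNTTC, the interferon response element and the NF-kappaB site. Capitals mark matches, the sequences run 5′ to 3′ on the gene's strand, and positions count from the gene start.
Agt, chr8:124569657-124569956, minus strand: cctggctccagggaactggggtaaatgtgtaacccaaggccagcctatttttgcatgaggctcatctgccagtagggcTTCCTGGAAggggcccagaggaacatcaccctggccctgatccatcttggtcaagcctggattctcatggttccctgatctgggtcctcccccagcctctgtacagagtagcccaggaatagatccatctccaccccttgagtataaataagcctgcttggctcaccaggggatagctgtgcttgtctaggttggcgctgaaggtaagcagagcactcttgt
Serpina3n, chr12:104406458-104406757, plus strand: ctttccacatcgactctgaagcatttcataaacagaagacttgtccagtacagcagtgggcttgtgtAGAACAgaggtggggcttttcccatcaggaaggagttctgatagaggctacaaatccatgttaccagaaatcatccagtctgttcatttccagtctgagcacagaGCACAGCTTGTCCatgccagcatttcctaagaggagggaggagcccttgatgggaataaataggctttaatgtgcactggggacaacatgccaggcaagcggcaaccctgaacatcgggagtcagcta
Serpinb6a, chr13:34002745-34003044, minus strand: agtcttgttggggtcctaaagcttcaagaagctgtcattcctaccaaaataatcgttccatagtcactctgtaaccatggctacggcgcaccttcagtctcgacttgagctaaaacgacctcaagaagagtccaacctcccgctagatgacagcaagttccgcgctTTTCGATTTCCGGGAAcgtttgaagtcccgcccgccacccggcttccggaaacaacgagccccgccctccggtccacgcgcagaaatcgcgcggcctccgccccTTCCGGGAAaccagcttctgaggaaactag
Serpinb9, chr13:33004291-33004590, plus strand: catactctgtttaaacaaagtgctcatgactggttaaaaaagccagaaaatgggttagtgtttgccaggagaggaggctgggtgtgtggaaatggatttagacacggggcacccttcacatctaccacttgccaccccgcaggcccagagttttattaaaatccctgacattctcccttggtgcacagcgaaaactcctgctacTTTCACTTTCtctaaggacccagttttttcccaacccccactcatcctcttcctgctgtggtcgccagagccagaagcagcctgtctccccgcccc
Serpinh1, chr7:99353190-99353489, minus strand: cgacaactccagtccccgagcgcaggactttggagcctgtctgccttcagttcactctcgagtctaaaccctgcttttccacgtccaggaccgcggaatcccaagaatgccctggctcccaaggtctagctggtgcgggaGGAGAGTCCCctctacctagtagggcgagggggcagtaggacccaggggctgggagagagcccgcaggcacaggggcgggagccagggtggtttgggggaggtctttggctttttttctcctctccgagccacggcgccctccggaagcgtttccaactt

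The Serpina3n window held a full glucocorticoid receptor site, GCACAGCTTGTCC, at -78 to -66, and a half-site at -183 to -178. Full sites were found in 0.475% and half-sites in 19.0% of 32851 promoter windows of the same length. Among the 35 members with a window, 2 held a full site and 13 a half-site. The other full site, GAACACCGTGTGC, lay at 3 to 15 in the window of Serpinf2 (chr11:75439452-75439751, minus strand), a gene that did not pass in DEX (0.09, adjusted p = 0.223, limma). The Agt window held the STAT site TTCCTGGAA at -172 to -164, a motif present in 8.30% of windows, and neither form of the glucocorticoid receptor site. In the Serpinb9 window the interferon response element TTTCACTTTC lay at -46 to -37, and 3.44% of all windows held such an element. Serpinb6a had an interferon response element at -84 to -75 that overlapped a STAT site at -77 to -69, and a further STAT site at 21 to 29. The Serpinh1 window held an NF-kappaB site at -110 to -101 (8.46% of windows) and no heat shock element of these letters (7.86% of windows). No window was found for Serpinb1a, so its start region was not searched. Windows of Serpinb1b and of another start of Serpinb6a held no match. These matches are letters in a window and no evidence of binding.

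Of the 40 members, 13 lay above the array median (an intensity of 124.5 to 129.5) on all 11 arrays, 4 on some arrays, and 23 on none. These counts differed little between groups: 14 and 15 members lay above it on the CI arrays, 15 on each TNF array, 13 to 15 on the DEX arrays and 15 or 16 on the control arrays. Besides Agt, the 13 were Serpina3n, Serpina10, Serpina4-ps1, Serpinb6a, Serpinb6e, Serpinb8, Serpinb9, Serpinb9b, Serpind1, Serpinf1, Serpinf2 and Serpinh1. A mean intensity of at least 51.7, the 25th percentile of all probe sets, was required for testing, which 29 members met. The dimmest tested member, Serpinb5, averaged 58.1 and the brightest member below the filter, Serpinc1, averaged 51.1. No tested member had a control mean under the filter. The 11 members left out averaged 8.43 to 51.1, and among them were Serpinc1, which encodes antithrombin, Serpina7, which encodes thyroxine-binding globulin, and Serpinb2. Serpina12, which encodes the adipokine vaspin, measured 118.4 to 140.3 over all arrays and passed in no comparison.

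In DEX Agt and Serpina3n rose, and Serpinh1, Serpinb9 and Serpinf1 fell. In TNF the clade B genes Serpinb1a, Serpinb1b and Serpinb6a rose together with Serpina3n, while Agt fell. In CI Agt fell and Serpinb9 rose. Changes were tested on log2(intensity + 16) with limma and Benjamini-Hochberg adjustment over all 15623 tested genes, and a gene passed at an adjusted p under 0.05. In DEX 10 of 29 members passed (34.5%, against 27.6% of all tested genes), 5 higher and 5 lower, where 14.0% of all genes were higher and 13.6% lower. In TNF 10 passed (34.5%, against 25.2%), 7 higher and 3 lower, where 13.9% and 11.2% of all genes did so. In CI 4 passed (13.8%, against 17.3%), 2 higher and 2 lower, where the shares of all genes were 8.38% and 8.88%. The median log2 fold change of the 29 members was 0.02 in CI, -0.05 in TNF and -0.004 in DEX, beside 0.01, -0.01 and 0.02 for all tested genes. Members went both ways, which a median over all of them does not show. By clade, the median in TNF was 0.11 for clade B and -0.12 for clade A with Agt. Arrays of treatment and control did not overlap for 12 members in CI, 12 in TNF and 14 in DEX, where the same held for 46.0%, 43.1% and 40.5% of all tested genes.

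**Figure D1:**
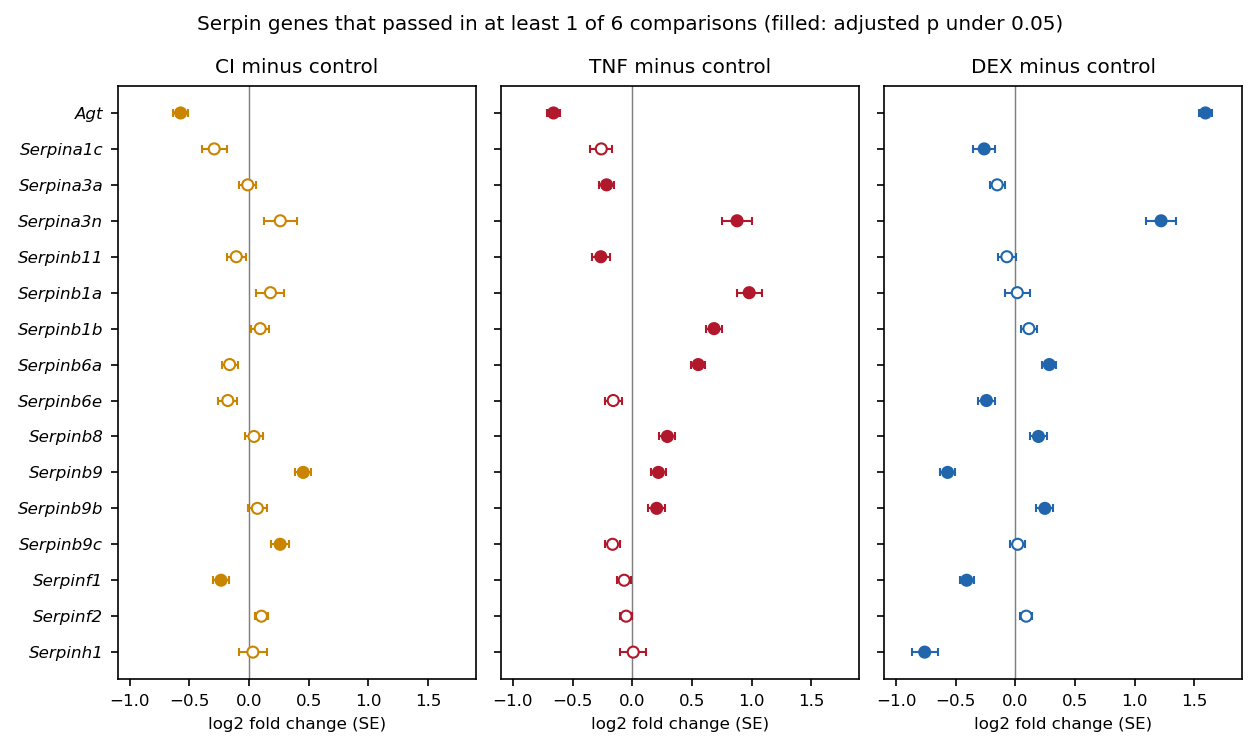
Log2 fold change (x axis, with standard error) of the 16 members that passed in at least 1 of 6 comparisons, for CI, TNF and DEX against control. Filled points passed at an adjusted p under 0.05. Agt lies at -0.57 in CI and -0.66 in TNF but at 1.59 in DEX.

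Agt had intensities of 3407 and 3252 in CI, 3251, 3063 and 3096 in TNF, 15300, 15160 and 14590 in DEX, and 5238, 5024 and 4650 in control. Every DEX array lay above every other array, and every CI and TNF array lay below every control array. Its log2 fold change was 1.59 (SE 0.057) in DEX, about 3.02-fold, with an adjusted p of 2.64e-11 (limma). The log2 fold change was -0.66 (SE 0.057, adjusted p = 8.38e-07, limma) in TNF and -0.57 (SE 0.063, adjusted p = 3.55e-05, limma) in CI. Set directly against each other, TNF lay 2.25 below DEX on the log2 scale (adjusted p = 4.28e-13, limma) and DEX lay 2.17 above CI (2.68e-12). TNF and CI differed by -0.09 (adjusted p = 0.310), with means of 3137 ± 100 (SD, n = 3) in TNF and 3329 ± 109 (SD, n = 2) in CI. The other 5 differences of Agt passed under all 20 alternative settings.

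Of 13 tested genes of the renin-angiotensin system other than Agt, 1 rose and 3 fell in DEX (median -0.005), 1 rose and 2 fell in CI (median -0.04), and 0 rose and 1 fell in TNF (median -0.06). Among all tested genes 14.0% rose and 13.6% fell in DEX. The shares were 8.38% and 8.88% in CI and 13.9% and 11.2% in TNF. Agtr2, the type 2 angiotensin receptor, averaged 23.3 ± 1.39 in DEX (SD, n = 3) against 215.9 ± 17.8 in control (SD, n = 3), and was lower with an adjusted p of 2.25e-11 (limma). The DEX level of Agtr2 is under the intensity required of a gene's mean for testing and close in size to the added 16, so its fitted log2 fold change of -2.56 depends on that constant and is no exact size. Agtr2 also fell in CI (-0.59, adjusted p = 9.77e-04). Atp6ap2, which encodes the prorenin receptor, rose in DEX (0.36, adjusted p = 3.11e-04) and fell in CI (-0.33, adjusted p = 0.00325). The peptidase genes Nln (-0.40) and Ctsd (-0.28) fell in DEX, Thop1 rose in CI (0.40), and Ace, the angiotensin-converting enzyme gene, fell in TNF (-0.18, adjusted p = 0.0322). Enpep, another gene of the list, averaged under the intensity required for testing. It measured 139.3 and 135.2 in CI against 33.28 to 40.93 in control, a difference that was not tested.

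Among the 12 tested clade A genes, Agt included, 2 rose and 1 fell in DEX, 1 rose and 2 fell in TNF, and 0 rose and 1 fell in CI. Over all tested genes, 14.0% rose and 13.6% fell in DEX, 13.9% and 11.2% in TNF, and 8.38% and 8.88% in CI. Serpina3n, a mouse relative of antichymotrypsin that is known as an acute-phase gene, measured 482.2 and 400.8 in CI, 650.5, 897.8 and 544.8 in TNF, 921.7, 857.6 and 834.6 in DEX, and 370.1, 361.2 and 361.1 in control. All CI, TNF and DEX arrays were above all control arrays, and TNF replicate 2 reached the DEX range. The log2 fold change was 1.22 (SE 0.126, adjusted p = 2.66e-06, limma) in DEX and 0.88 (SE 0.126, adjusted p = 1.14e-04, limma) in TNF. In CI it was 0.26 and did not pass (adjusted p = 0.241, limma), except with only the groups compared in the fit (0.0416). Serpina3n belongs to a large group of near-identical mouse copies, so its probe set may also read relatives.

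Most other clade A genes stayed near their control level. Serpina10, which encodes an inhibitor of factor Xa, measured 158.8 and 151.1 in CI, 155.7, 139.8 and 141.6 in TNF, 162.8, 155.4 and 144.0 in DEX, and 149.4, 166.1 and 170.3 in control, and passed nowhere. The pseudogene Serpina4-ps1 measured 171.3 and 177.4 in CI, 163.0, 161.4 and 166.3 in TNF, 175.3, 186.5 and 195.0 in DEX, and 144.2, 183.9 and 183.0 in control, with overlapping groups. Serpina3a fell in TNF (-0.22, adjusted p = 0.0208), but the call was lost on leaving out control replicate 1 (0.0549) or 3 (0.0842), or TNF replicate 1 (0.0961). Serpina1c, an alpha-1-antitrypsin gene, fell in DEX (-0.26, adjusted p = 0.0491) and held in 7 of 20 alternative settings. It was lost on leaving out control replicate 1 (0.233) or 2 (0.0705), TNF replicate 1 (0.0607), 2 (0.0598) or 3 (0.0560), or DEX replicate 2 (0.181) or 3 (0.0715). The 11 hepatocyte markers summed to 1548 and 1646 in CI, 1442 to 1497 in TNF, 1646 to 1687 in DEX and 1608 to 1619 in control. Of 9 tested, set beside these genes because the liver makes many plasma serpins, 0 rose and 0 fell in CI, 0 rose and 3 fell in TNF, and 1 rose and 0 fell in DEX. Among all tested genes 8.38% rose and 8.88% fell in CI. The shares were 13.9% and 11.2% in TNF and 14.0% and 13.6% in DEX.

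**Figure D2:**
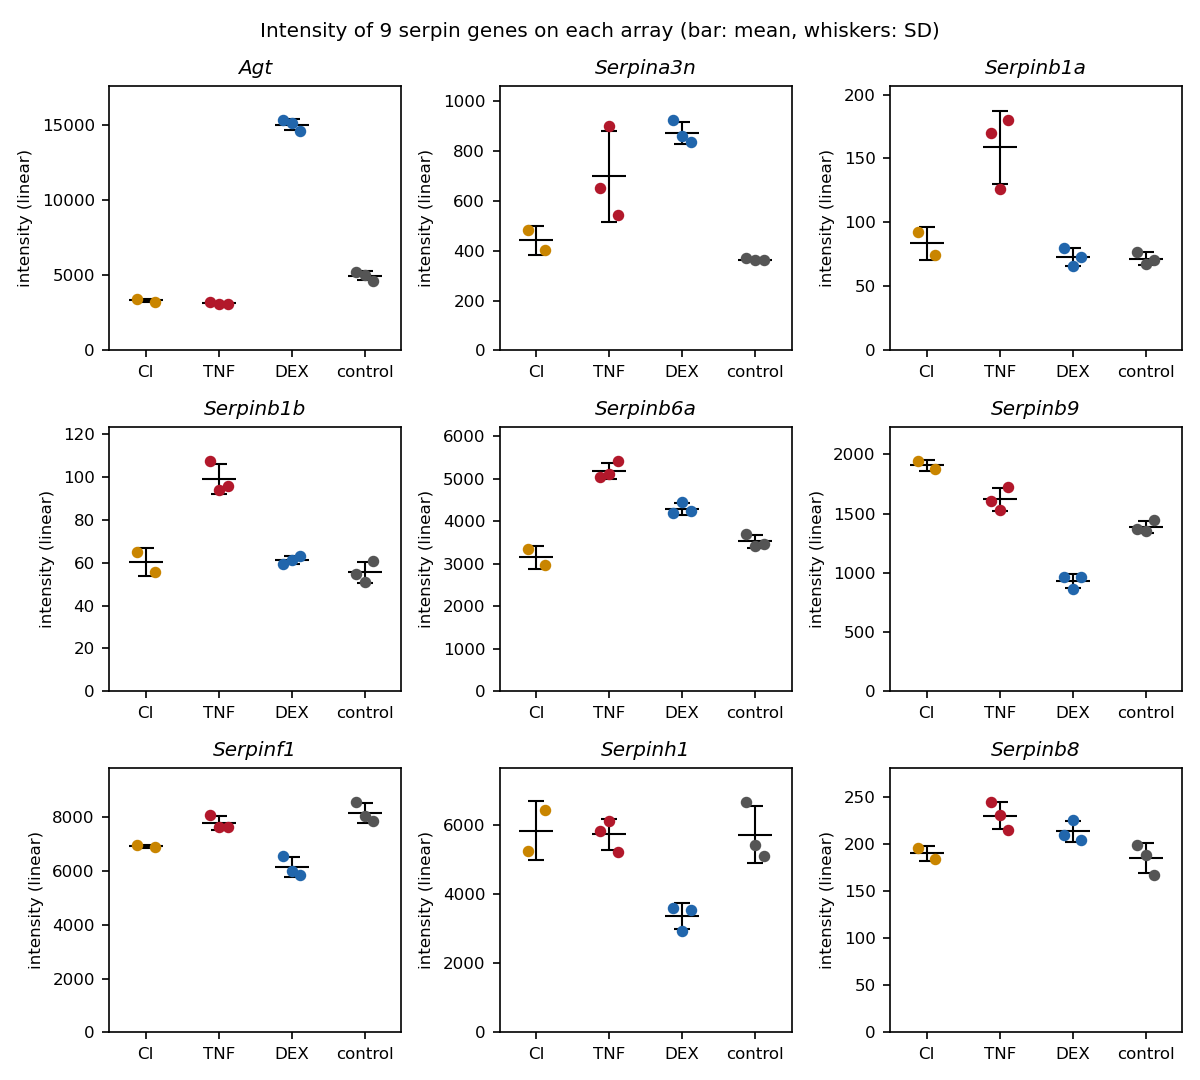
Linear intensity (y axis, from 0) of 9 members on each array, with the mean (bar) and SD (whiskers) of CI (n = 2), TNF (n = 3), DEX (n = 3) and control (n = 3). Agt and Serpina3n are highest on DEX arrays, with 1 TNF array in the Serpina3n range of DEX, while Serpinh1 and Serpinb9 are lowest there.

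Of 12 tested clade B genes 6 rose and 1 fell in TNF, 3 rose and 2 fell in DEX, and 2 rose and 0 fell in CI. The shares of all tested genes that rose and fell were 13.9% and 11.2% in TNF, 14.0% and 13.6% in DEX, and 8.38% and 8.88% in CI. Serpinb1a, the mouse counterpart of the human inhibitor of neutrophil elastase, cathepsin G and proteinase 3, measured 92.7 and 74.7 in CI, 169.6, 126.5 and 179.7 in TNF, 80.0, 65.6 and 72.9 in DEX, and 77.1, 67.6 and 70.6 in control. Its TNF arrays lay above all other arrays. The log2 fold change in TNF was 0.98 (SE 0.105, adjusted p = 7.57e-06, limma), and the dimmer probe set of the gene differed by 0.45 in the same direction. Its close relative Serpinb1b measured 64.9 and 55.6 in CI, 107.1, 93.9 and 95.8 in TNF, 59.5, 61.1 and 63.1 in DEX, and 54.5, 51.0 and 60.9 in control. Again each TNF array was above every other array, with a log2 fold change of 0.69 (SE 0.068, adjusted p = 3.30e-06, limma). Both genes were dim, so the added 16 understates their fold change, and reads of the pair by each other's probes cannot be told apart here. Neither differed beyond the threshold in CI (adjusted p = 0.351 for Serpinb1a and 0.468 for Serpinb1b, limma) or DEX (0.934 for Serpinb1a and 0.240 for Serpinb1b).

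Serpinb6a, an intracellular inhibitor of cathepsin G, was one of the bright members. It measured 3340 and 2961 in CI, 5026, 5114 and 5402 in TNF, 4193, 4455 and 4239 in DEX, and 3708, 3418 and 3452 in control. The TNF arrays were the highest, the DEX arrays came next, and CI and control lay below without reaching them. It rose by 0.55 in TNF (SE 0.060, adjusted p = 9.23e-06, limma) and by 0.28 in DEX (SE 0.060, adjusted p = 0.00231, limma), and TNF exceeded DEX by 0.27 (adjusted p = 0.00279). In CI it was at -0.16 (adjusted p = 0.116).

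Serpinb9, an inhibitor of granzyme B, separated the treatments by direction. It measured 1939 and 1875 in CI, 1608, 1530 and 1722 in TNF, 964.1, 864.9 and 967.5 in DEX, and 1370, 1352 and 1443 in control. The 4 groups did not overlap, in the order DEX, control, TNF and CI. It fell in DEX (-0.57, SE 0.062, adjusted p = 4.67e-06, limma) and rose in CI (0.45, SE 0.069, adjusted p = 4.07e-04, limma). The increase in TNF (0.22, adjusted p = 0.0172) was lost on leaving out control replicate 2 (0.0697) or TNF replicate 3 (0.0771), or after quantile normalization (0.0678). DEX lay 1.02 below CI (adjusted p = 2.12e-08) and TNF lay 0.79 above DEX (adjusted p = 1.01e-07). A dimmer probe set of Serpinb9 had the same signs against control, at 0.30 in CI, 0.27 in TNF and -0.36 in DEX. On that probe set the TNF arrays (247.2, 263.2 and 319.8) overlapped the CI arrays (285.8 and 279.4).

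Gene order was taken from the RefSeq table (GRCm38.p6), with protein-coding genes alone counted here and in the runs below. Serpinb1a, Serpinb9, Serpinb1b and Serpinb6a lie in 1 uninterrupted run of 16 clade B genes on chromosome 13. Serpinb1a has the first place and Serpinb6a the last. The run holds 11 members, of which 8 were tested: 5 rose and 0 fell in TNF, 2 rose and 2 fell in DEX, and 2 rose and 0 fell in CI. Beside this and the runs below, 13.9% of all tested genes rose and 11.2% fell in TNF. The shares of all genes were 14.0% and 13.6% in DEX, and 8.38% and 8.88% in CI. Serpinb9c, in the place after Serpinb1b, was at -0.17 in TNF and did not pass (adjusted p = 0.0772). A second run, of 23 clade A genes on chromosome 12, ends with Serpina3n. Of its 10 tested members 1 rose and 1 fell in TNF and in DEX, and none passed in CI by limma. Of 4 tested members of a run of 12 clade B genes on chromosome 1, 1 rose and 1 fell in TNF, 1 rose in DEX, and none passed in CI.

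**Figure D3:**
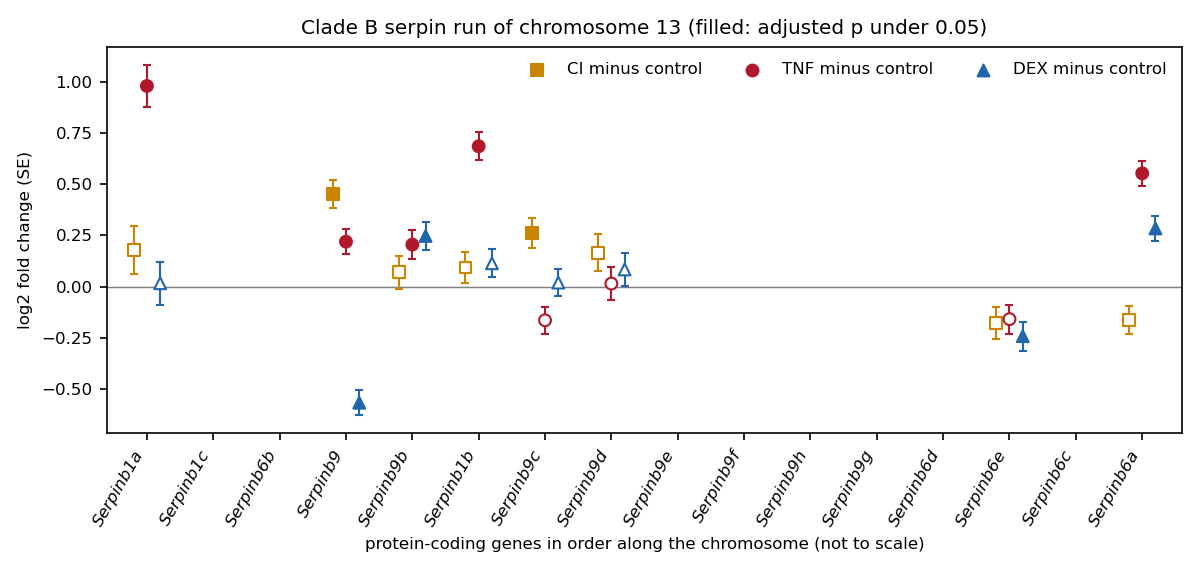
Log2 fold change (y axis, with standard error) for CI, TNF and DEX against control along the clade B run of chromosome 13. Its 16 protein-coding genes are in gene order and not to scale. Filled symbols passed, and places without symbols were not tested. In TNF, filled points stand at Serpinb1a, Serpinb9, Serpinb9b, Serpinb1b and Serpinb6a.

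The remaining clade B genes moved less. Serpinb8, an inhibitor of furin, measured 195.8 and 184.5 in CI, 244.0, 230.8 and 215.0 in TNF, 209.8, 225.9 and 204.0 in DEX, and 198.9, 188.0 and 167.3 in control. TNF and DEX arrays lay above all control arrays, and CI overlapped control. It rose in TNF (0.29, adjusted p = 0.00539, limma), although the mean of its probe sets did not pass (0.0523). Its dimmer probe set differed by only 0.07 in TNF and 0.04 in DEX, and by -0.31 in CI. In DEX the brightest probe set of Serpinb8 was at 0.19 (adjusted p = 0.0466, limma), and 13 of 20 alternatives did not pass. These included leaving out control replicate 2 (0.0813) or 3 (0.208), CI replicate 1 (0.0535) or 2 (0.0535), TNF replicate 2 (0.0607), and DEX replicate 1 (0.0765) or 2 (0.151).

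Serpinb9b, a copy related to Serpinb9, measured 299.0 and 336.6 in CI, 312.5, 382.0 and 359.6 in TNF, 368.5, 347.4 and 367.6 in DEX, and 301.6, 312.6 and 291.1 in control. DEX arrays lay above all control arrays, while TNF and CI overlapped control. It passed in DEX (0.25, adjusted p = 0.0163, limma), except without control replicate 3 (0.0597) or DEX replicate 1 (0.0516). In TNF (0.21, adjusted p = 0.0458) it passed in 11 of 20 alternatives, and not without control replicate 1 (0.0877), 2 (0.0691) or 3 (0.139), TNF replicate 2 (0.191) or 3 (0.120), or DEX replicate 1 (0.0539) or 3 (0.0528). Serpinb9c was at 75.9 and 71.3 in CI, 56.1, 44.9 and 51.7 in TNF, 57.7, 57.3 and 64.8 in DEX, and 58.8, 58.0 and 59.6 in control. Its CI arrays lay above all others and its TNF arrays below all others, and it rose in CI (0.26, adjusted p = 0.0221, limma). On its dimmer probe set, which averaged 45.7, CI arrays again lay above all others (0.15 against control). TNF arrays of that probe set overlapped control (-0.03). The call of Serpinb9c was lost without control replicate 1 (0.0542) or 2 (0.0661), or CI replicate 1 (0.177) or 2 (0.0559).

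Serpinb6e measured 943.7 and 840.1 in CI, 854.3, 958.6 and 898.2 in TNF, 925.4, 850.6 and 783.5 in DEX, and 957.4, 1050 and 1025 in control. All DEX arrays lay below all control arrays. It fell in DEX (-0.24, adjusted p = 0.0187, limma), but not without control replicate 2 (0.0777) or 3 (0.0549) or DEX replicate 3 (0.0897). Its probe set is of a type that can read related copies. Serpinb11 fell in TNF (-0.26, adjusted p = 0.0163), a call lost on leaving out control replicate 3 (0.0556) or TNF replicate 2 (0.0851).

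Serpinf1 encodes pigment epithelium-derived factor, a secreted serpin without protease inhibition that fat cells release. It measured 6951 and 6869 in CI, 8067, 7623 and 7612 in TNF, 6561, 5990 and 5858 in DEX, and 8535, 8050 and 7844 in control. DEX arrays were the lowest, CI arrays came next, and TNF overlapped control. It fell in DEX by 0.41 (SE 0.058, adjusted p = 7.29e-05, limma). In CI it was at -0.24 (adjusted p = 0.0207), a call lost on leaving out control replicate 1 (0.0784) or CI replicate 1 (0.0953) or 2 (0.105), and in TNF at -0.07 (0.426). Its dimmer probe set stood at -0.27 in CI, -0.10 in TNF and -0.42 in DEX.

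Of the inhibitors of clotting and clot breakdown, Serpinf2, Serpind1 and Serpina10 were tested and did not pass in any comparison with control, while Serpinc1 and Serpina5 were too dim to be tested. Serpinf2, which encodes the plasmin inhibitor, measured 361.4 and 364.4 in CI, 308.0, 338.6 and 327.1 in TNF, 354.9, 353.7 and 370.4 in DEX, and 329.0, 344.7 and 336.4 in control. Its CI and DEX arrays lay above all control arrays without passing the test. Serpind1, which encodes the thrombin inhibitor heparin cofactor II, measured 153.8 and 158.7 in CI, 141.7, 151.2 and 153.9 in TNF, 167.8, 148.8 and 144.4 in DEX, and 144.3, 162.1 and 157.5 in control, with overlapping groups. Of 24 tested genes of plasminogen activation and coagulation, 7 rose and 1 fell in TNF (median 0.05), 3 rose and 5 fell in DEX (median 0.002), and 2 rose and 2 fell in CI (median -0.01). Among all tested genes 13.9% rose and 11.2% fell in TNF. The shares were 14.0% and 13.6% in DEX and 8.38% and 8.88% in CI. Pros1 (0.99), which encodes protein S, the thrombin receptor gene F2r (0.93), Lrp1 (0.71), which encodes a receptor that takes up serpin-protease complexes, and the protein C receptor gene Procr (0.76) rose in TNF. Plat, the tissue plasminogen activator gene, fell to 124.4 ± 34.5 in DEX (SD, n = 3), against 371.5 ± 93.3 in control (SD, n = 3), a log2 fold change of -1.47 (adjusted p = 1.07e-05, limma).

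Serpinh1 encodes HSP47, a chaperone of the endoplasmic reticulum that binds procollagen. It measured 5242 and 6442 in CI, 5826, 6133 and 5229 in TNF, 3610, 2937 and 3544 in DEX, and 6655, 5412 and 5099 in control. All DEX arrays were below all others, and the other groups overlapped. The log2 fold change in DEX was -0.76 (SE 0.107, adjusted p = 6.87e-05, limma), while it was 0.03 in CI (adjusted p = 0.907) and 0.01 in TNF (0.965). TNF lay 0.77 above DEX (adjusted p = 4.64e-05) and DEX lay 0.79 below CI (adjusted p = 9.27e-05).

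Of 20 tested genes for procollagens and their modifying enzymes, 12 fell in DEX as Serpinh1 did, 1 rose and the others did not pass (median -0.21), against 5 higher and 2 lower in TNF (median 0.04) and 4 higher and 1 lower in CI (median 0.06). Among all tested genes 14.0% were higher and 13.6% lower in DEX. The shares were 13.9% and 11.2% in TNF and 8.38% and 8.88% in CI. Col1a1 fell to 2804 ± 501 in DEX (SD, n = 3), against 7233 ± 1230 in control (SD, n = 3), and Col5a2 (-1.28), Col3a1 (-1.19) and Col1a2 (-0.83) fell as well. P4ha2, a subunit of prolyl 4-hydroxylase, was the gene that rose in DEX (0.32, adjusted p = 0.00805), and it also rose in TNF (1.07, adjusted p = 2.34e-07).

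A list of serine and cysteine proteases, put together here as possible targets of serpins, was mixed. Whether a serpin inhibits each of them was not tested. Of 18 tested, 5 rose and 1 fell in TNF (median -0.06), 2 rose and 3 fell in DEX (median -0.03), and 0 rose and 4 fell in CI (median -0.06). Among all tested genes 13.9% rose and 11.2% fell in TNF. The shares were 14.0% and 13.6% in DEX and 8.38% and 8.88% in CI. The protease gene Prss23 rose in TNF (1.27) and DEX (0.52) and fell in CI (-0.77). In TNF the inflammatory caspase gene Casp4 (1.47), Ctsk (0.56), which encodes cathepsin K, and Prtn3 (0.54), which encodes proteinase 3, also rose. Prtn3 measured 298.3 ± 3.70 in TNF (SD, n = 3) and 200.2 ± 10.2 in control (SD, n = 3), and it fell in CI (-0.54, adjusted p = 3.62e-04, limma).

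**Figure D4:**
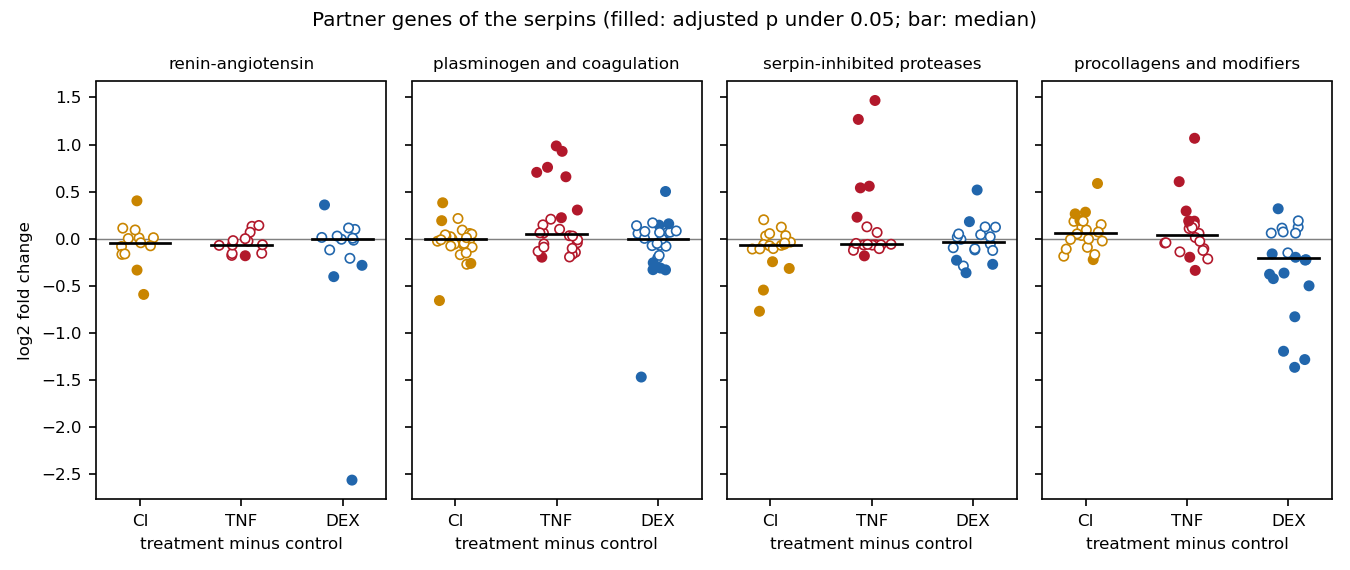
Log2 fold change (y axis) against control of each tested gene in 4 lists of possible serpin partners, by treatment (x axis). The list median is a bar and filled points are genes that passed. Low points in DEX include Agtr2 at -2.56 (a size that depends on the added 16), Plat at -1.47 and Col1a1 at -1.36.

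Between treatments, 10 of 29 members passed for TNF against DEX (34.5%, against 36.1% of all tested genes). Of these, 6 were higher and 4 lower, where 18.2% and 18.0% of all genes were so. For TNF against CI 8 passed (27.6%, against 36.2% of all genes), 5 higher (18.9% of all genes) and 3 lower (17.3% of all genes). For DEX against CI 6 passed (20.7%, against 34.0% of all genes), 3 higher (17.1% of all genes) and 3 lower (16.9% of all genes). Serpinb6a exceeded CI by 0.72 in TNF (adjusted p = 1.16e-06, limma) and by 0.45 in DEX (8.79e-05). Serpinb1a exceeded DEX by 0.96 in TNF (3.50e-06) and CI by 0.80 (7.82e-05), and Serpinb1b did so by 0.57 (8.14e-06) and 0.59 (2.12e-05). Serpinf1 was 0.34 higher in TNF than in DEX (3.05e-04), and Serpina3n was 0.96 higher in DEX than in CI (6.69e-05). Serpina3n was also higher in TNF than in CI (0.62, adjusted p = 0.00291), but not past the threshold without CI replicate 2 (0.0556). Between TNF and DEX the difference of Serpina3n was -0.34 (adjusted p = 0.0453), which passed in 7 of 20 alternatives. It was lost without control replicate 1 (0.0543) or 2 (0.0603), TNF replicate 1 (0.126) or 3 (0.216), or DEX replicate 1 (0.126), 2 (0.0780) or 3 (0.0659). Serpinb9c was lower in TNF than in CI (-0.43, adjusted p = 3.06e-04), and this passed under all 19 alternatives that tested it.

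Other calls between treatments were lost in places. Serpinb9 was lower in TNF than in CI (-0.23, adjusted p = 0.0151, limma), but not past the threshold without CI replicate 1 (0.10) or TNF replicate 2 (0.0624), or with the mean of its probe sets (0.112). For Serpinb8 the difference of TNF and CI (0.25, adjusted p = 0.0172) was lost without CI replicate 2 (0.131) or TNF replicate 1 (0.0679). That of Serpina3a (-0.20, adjusted p = 0.0338) was lost without CI replicate 2 (0.281) or TNF replicate 1 (0.120), with centring (0.0683), with quantile normalization (0.0741) and with 64 added (0.0502). Between DEX and CI the difference of Serpinb9c (-0.24, adjusted p = 0.0173) was lost without CI replicate 1 (0.136) or DEX replicate 1 (0.0551). Between TNF and DEX, Serpinb9c (-0.18, adjusted p = 0.0380) passed in 10 of 19 alternatives, and was lost without control replicate 2 (0.0508), TNF replicate 2 (0.179) or 3 (0.0632), or DEX replicate 3 (0.151). Serpinf2 (-0.14, adjusted p = 0.0454) passed in 8 of 20 and was lost on leaving out any 1 array other than TNF replicate 2, with adjusted p up to 0.182. The 13 members that passed in none of the 6 comparisons differed from control by -0.18 to 0.17 on the log2 scale.

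All 5 glucocorticoid-response genes rose in DEX and all 5 TNF-response genes rose in TNF. In DEX 4 of the TNF-response genes rose too, among them Saa3 (0.87) and Lcn2 (2.49), and Lcn2 also rose in CI (1.69). Fkbp5, a glucocorticoid receptor target, averaged 8045 ± 83.1 in DEX (SD, n = 3) against 1214 ± 59.5 in control (SD, n = 3), and the acute-phase gene Saa3 averaged 18180 ± 1130 in TNF (SD, n = 3) against 399.4 ± 50.4 in control (SD, n = 3). The 10 adipocyte markers on the arrays summed to 127600 and 129100 in CI, 106200 to 108300 in TNF, 120400 to 128800 in DEX and 127500 to 129300 in control. Of these, 1 rose and 0 fell in CI, 5 fell in TNF, and 4 fell and 1 rose in DEX. The 11 preadipocyte and fibroblast markers summed to 35570 and 35830 in CI, 47230 to 49750 in TNF, 34100 to 38910 in DEX and 40700 to 46700 in control. Of 10 tested, 5 fell in CI, 4 rose and 1 fell in TNF, and 2 rose and 4 fell in DEX. The 12 macrophage and leukocyte markers summed to 4162 and 4399 in CI, 6195 to 6653 in TNF, 3630 to 4123 in DEX and 4825 to 5022 in control, while the defining leukocyte gene Ptprc lay at 22.29 to 28.17 and Cd163 at 14.65 to 18.95 over all arrays. Of 9 tested, 1 rose and 2 fell in CI, 3 rose and 1 fell in TNF, and 1 rose and 2 fell in DEX. Beside all these marker counts, 8.38% of all tested genes rose and 8.88% fell in CI. The shares were 13.9% and 11.2% in TNF and 14.0% and 13.6% in DEX. Cd14 rose in TNF (1.48) and DEX (0.90) and fell in CI (-0.68), and Lyz2 rose in TNF (0.34) and fell in DEX (-0.62) and CI (-0.64). Cd53 rose (0.61) and Fcgr1 fell (-0.16) in TNF, and Mpeg1 rose in CI (0.57) and fell in DEX (-1.67). Each marker sum mostly follows its brightest genes, such as Lyz2 (1335 to 3030 over all arrays) or Vim (13160 to 15490). It says little about the dim markers of the list. The part of these cell markers in the serpin results was not tested. In bulk RNA, fewer cells of a type and less RNA per cell cannot be told apart.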

How the data were processed

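Total RNA of 11 samples was hybridised to 1-colour Affymetrix arrays. The authors deposited 1 table of linear intensities of 45101 probe sets, per the file headers. The background correction, summarisation and scaling behind it are not given in the sources used here. Array medians lay between 124.5 and 129.5, so no further normalization was applied, and array number limits the precision. Probe sets with 1 gene symbol were kept (34945) and the brightest probe set stood for each gene. A dim filter removed genes whose mean lay in the lowest 25% of probe sets. limma 3.58.1 in R 4.3.3 was run on log2(intensity + 16) in 1 fit of all 4 groups, which understates the change of dim genes, with Benjamini-Hochberg adjustment over 15623 genes. The script was tested on simulated data. The genes named are members that passed or lay above the array median, and, per list and comparison, up to 4 genes with the smallest adjusted p. Of untested list genes, Enpep, Ptprc and Cd163 are also named, with intensities only. The members and lists were chosen with earlier results of these data known. Alternatives covered the added constant, dim filter, centring, quantile normalization, probe set choice, groups in the fit, replicate block and leaving out each array. Clade E serpins were not analysed here.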

Additional observations from a re-analysis of the deposited data

Results flagged for a closer look

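One probe set that the annotation assigns to 4 serpin genes at once was left out of all comparisons, and all its CI and TNF arrays, and 2 of its 3 DEX arrays, lay above all control arrays. It measured 169.9 and 181.7 in CI (mean 175.8), 148.2, 154.6 and 150.8 in TNF (mean 151.2), 144.2, 150.5 and 153.1 in DEX, and 139.8, 147.8 and 146.6 in control. No gene can be named from it, and the difference was not tested.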

How the results depend on the processing

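Replicates are 2 or 3 arrays a group, and dim members were limited by signal over background. The 16 members that passed in at least 1 of 6 comparisons gave 1890 values under 20 alternatives. Of these values, 1753 kept their call, 103 lost it, 34 gained it and 0 reversed. The 13 tested members that passed nowhere were not in this tally. Of 48 differences that passed, 29 passed under every alternative that gave a value. With the dim filter at the median, 1 member was higher in CI and 1 lower in TNF. Serpina3a, Serpinb11, Serpinb9c, Serpinb1a and Serpinb1b averaged under that filter. They were not tested in this setting, so their calls were neither kept nor lost in it. The count of 4 members lower in TNF than in DEX became 2 with 64 added and 1 with centring. It was 2 with the mean of all probe sets and 2 with only the groups compared. In that last setting Serpina3n (adjusted p = 0.069, limma), Serpinb9c (0.0707) and Serpinf2 (0.0839) lost their calls. That count of 2 therefore includes a member outside the 4. Leaving out 1 array gave 1 to 2 higher and 1 to 4 lower in CI, 5 to 7 and 2 to 4 in TNF, 3 to 5 and 3 to 5 in DEX, 3 to 6 and 2 to 4 for TNF against CI, 3 and 2 to 3 for DEX against CI, and 6 and 1 to 3 for TNF against DEX. Apart from the genes that the median filter left untested, the cause of these shifts was not tested. Over all genes, TNF had 2173 higher and 1757 lower, against 2391 and 1383 with centring and 1788 and 2073 with quantile normalization. Same-numbered arrays of different groups correlated at -0.287 to 0.341. Control and TNF pairs gave 0.288, 0.00944 and 0.341, and control and DEX pairs 0.277, 0.0195 and 0.106. Since not every pair was over 0.1, the numbers were not taken to pair the arrays, and a shared batch is neither shown nor excluded. With the replicate block, 2 rose and 2 fell in CI, 7 and 3 in TNF, 5 and 4 in DEX, 6 and 4 for TNF against CI, 4 and 3 for DEX against CI, and 6 and 5 for TNF against DEX.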
